A study of Mus musculus with 23 samples.

Results

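Murine pancreatic ductal adenocarcinoma (PDAC) cell lines were sorted by their own signal for Efemp1, and lines in which Efemp1 was silent were compared with lines that expressed it. The members were chosen by the measured Efemp1 signal, where lines below 5 on the log2 scale were taken as silent and lines at 8 or more as expressing. Of the 23 lines with an array, 4 were silent, 16 were expressing and 3 lay between and entered no test. The comparison asks which other transcripts were lost or gained together with Efemp1. Untreated low-passage cultures were profiled, each line on 1 Affymetrix whole-genome expression array. Several short probes report on a transcript together, and such a group is called a probe set.

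All lines were derived from genetically engineered mice with pancreas-specific Cre recombinase. The silent lines were PPT-5748 (Ptf1aCre/+), ASC-5193 (Ptf1aCre/+, LSL-p53R172H/+), B-152727 and B-5123. No genotype was listed for the last 2. Of the expressing lines, 7 carried Ptf1aCre/+ and 3 carried Pdx1-Cre, and 5 of these 10 lines also had the Trp53 R172H allele. No genotype was listed for the other 6 expressing lines. Of the lines between, PPT-5671 carried Ptf1aCre/+ with reporter alleles. Among the 10 expressing lines with a genotype were carriers of LSL-PCNA-ATG-fLuc/+, LSL-PCNA-IRES-fLuc/+ or LSL-R26Tva-lacZ/+ reporters. The Trp53 allele is activated by Cre in the pancreatic lineage, and each culture stands for the tumour cells of 1 site of 1 mouse. By the prefix of the name, 1 silent line was a PPT, 1 an ASC and 2 were B lines, against 9 PPT, 1 ASC and 2 B lines among the expressing ones, where LN1, PUL, PUL3 and HEP2 lines made up the rest. By the numbers in the names the silent lines came from 4 mice and the expressing lines from 11, and the mouse of ASC-5193 and PPT-5193 and mouse 15272 gave lines to both classes.

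Efemp1 encodes fibulin-3, a secreted glycoprotein with EGF-like repeats that belongs to the fibulin family of matrix proteins. Fibulins bind to basement membranes and elastic fibres and to inhibitors of matrix proteases, and fibulin-3 can also bind the EGF receptor. In tumours Efemp1 is known both as a gene silenced by promoter methylation and as a secreted factor that promotes growth, depending on the tissue.

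Efemp1 lies at chr11:28853154-28926743 (GRCm38.p6). The 250 bases before its start in the RefSeq promoter set, chr11:28852955-28853204 on the plus strand, are shown because this gene defines the classes, with each CpG in capitals. The last of these bases lie inside the annotated gene.
Efemp1: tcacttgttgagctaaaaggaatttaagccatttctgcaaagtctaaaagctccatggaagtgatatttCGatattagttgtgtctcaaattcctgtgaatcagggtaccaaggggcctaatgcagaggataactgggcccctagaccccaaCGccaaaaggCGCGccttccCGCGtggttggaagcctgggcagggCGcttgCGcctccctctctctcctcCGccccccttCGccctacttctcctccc
The stretch held 10 CpGs, against a median of 6 over 32851 windows of this length, and 62.2% of the windows held fewer. The arrays measure RNA and give no methylation level of these sites.

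The Efemp1 signal was 1.72 in PPT-5748, 2.26 in ASC-5193, 2.56 in B-152727 and 3.95 in B-5123. In the expressing lines it ran from 8.44 in ASC-53909 over a median of 10.34 to 11.41 in PPT-5320. PPT-5671 with 6.29, PPT-15272 with 6.63 and HEP-5123 with 7.16 lay between the classes. The line just inside the silent class, B-5123, was 3.95 and the line just outside it, PPT-5671, was 6.29, while the expressing class began at 8.44 with HEP-5123 below it at 7.16. These values chose the lines and were not tested. In bulk RNA a lower signal from fewer Efemp1-positive cells and from less Efemp1 RNA per cell cannot be told apart.

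**Figure D1:**
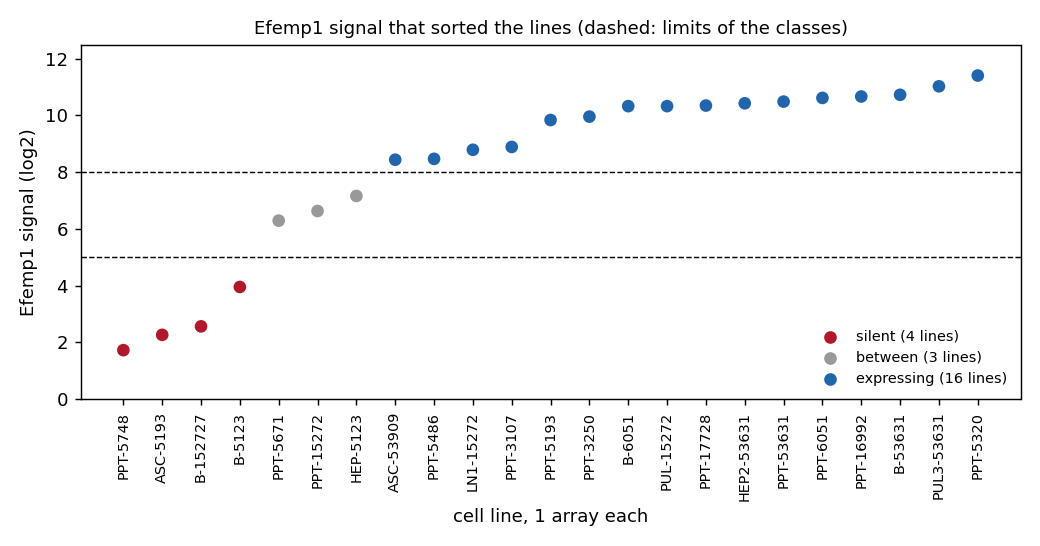
Efemp1 signal on the log2 scale (vertical axis) of the 23 lines (horizontal axis, 1 array each), coloured by class, with dashed lines at 5 and 8. The 4 silent lines lie between 1.72 and 3.95 and the 16 expressing lines between 8.44 and 11.41.

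Array medians ran from 3.58 to 3.89, and a signal under the median of all values, 3.76, is called dim below. The silent line ASC-5193 stood apart from the other silent lines in its cell type markers. Its 20 epithelial markers had a mean signal of 3.15, against 6.10 to 7.12 in the other silent lines and 4.33 to 8.38 in the expressing lines. Cdh1 (E-cadherin) was 2.75 in ASC-5193 and 10.78, 11.26 and 10.90 in B-5123, PPT-5748 and B-152727. Its 20 mesenchymal markers averaged 8.92, against 6.22 to 6.74 in the other silent lines and 5.25 to 10.24 in the expressing lines, 5 of which were higher. Its 12 fibroblast markers averaged 5.85, against 2.85 to 3.07 in the other silent lines and 2.88 to 7.17 in the expressing lines. Among these markers Dcn was 11.53, Postn 10.43 and Pdgfra 7.95 in ASC-5193, while Lum was 2.38 and Fap 2.31. Leukocyte and macrophage markers averaged 3.47 to 3.86 in the silent and 3.41 to 4.42 in the expressing lines, with the pan-leukocyte gene Ptprc at 1.81 to 2.14 in the silent lines. Endothelial markers averaged 2.71 to 2.94 in the silent and 2.65 to 2.94 in the expressing lines. The part of the fibroblast-like and mesenchymal profile of ASC-5193 in the differences given here was not tested beyond the values without that line.

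No probe set passed an adjusted p of 0.05 in limma, and 0% of 45036 was called in either direction. Mice with lines in both classes allow a fit with the mouse as a fixed block, where the mouse of ASC-5193 and mouse 15272 alone give the difference. There 35 of 45036 probe sets were higher and 38 lower at an adjusted p under 0.05. Itgb8, Cdcp1 and Gcnt3 had the smallest p of the named genes called. Mmp10 (0.00469), Ifit1 (0.0157), Fkbp11 (0.0169) and Gbp6 (0.0259) were also called. The spread in that fit comes only from lines of the same mouse. These adjusted p therefore do not measure how far the difference varies between mice. The 20 epithelial markers averaged 3.15 in ASC-5193 and 7.61 in PPT-5193 of the same mouse. With the mouse as a random block none was called. Without any block the smallest adjusted p was 0.13, and 11 probe sets were under 0.2. At an unadjusted p under 0.05, 1266 probe sets (2.81%) had a higher and 1436 (3.19%) a lower mean in the silent lines. The median difference between silent and expressing lines was -0.01 on the log2 scale, and 46.5% of the differences were positive. The silent mean was more than 1 higher for 450 and more than 1 lower for 415 probe sets, and by more than 2 for 61 and 68. A separation without overlap, with all 4 silent lines beyond all 16 expressing lines, was seen upward for 8 probe sets (0.0178%) and downward for 16 (0.0355%). Of these 24 probe sets, 9 had a mean above 3.76. Some of 45036 probe sets separate in this way without any link to Efemp1. Their number was not estimated, so a lack of overlap alone does not single out a gene.

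The named genes with lower signals in the silent lines included AA414768, Tpm2, Fkbp11 and Itga6, which with the dim Acaca had the smallest p among annotated probe sets. AA414768 was 4.89 in ASC-5193, 3.54 in B-5123, 2.80 in PPT-5748 and 3.36 in B-152727. In the expressing lines it ran from 4.31 over a median of 6.34 to 7.52, so that ASC-5193 lay above the lowest of them. The difference was -2.58 ± 0.42 (SE, n = 4 and 16) on the log2 scale with an adjusted p of 0.13 from limma.

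Tpm2 encodes beta-tropomyosin, which winds along actin filaments. Its signal was 7.17 in ASC-5193, 6.18 in B-5123 and 5.65 in PPT-5748, and 10.08 in B-152727. The expressing lines ran from 8.78 over 10.77 to 12.10, so that B-152727 lay inside their range and the other 3 silent lines below it. The difference was -3.45 ± 0.60 with an adjusted p of 0.165, and without B-152727 it was -4.38 with an adjusted p of 0.00248. Without ASC-5193, B-5123 or PPT-5748 the adjusted p was 0.324, 0.167 and 0.646. Taking out the silent line that overlaps the expressing lines widens the gap by itself, so the value without B-152727 adds no evidence. Of the 3 other probe sets of Tpm2, 1 had the same difference of -3.45 and the others differed by -2.06 and -0.31. Among the lines between the classes, HEP-5123 with 6.40 and PPT-5671 with 5.70 were as low as the silent lines, and PPT-15272 with 11.82 was as high as the expressing ones. Of 18 genes of actin filaments and contraction, Tpm2 was the only one with an unadjusted p under 0.05, 9 of the 18 differences were positive, and their median was -0.03.

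Itga6 encodes the integrin alpha 6 chain, which pairs with beta 1 or beta 4 chains to bind laminin in the basement membrane. It was 9.56 in ASC-5193, 10.20 in B-5123, 9.80 in PPT-5748 and 9.54 in B-152727. The expressing lines ran from 10.13 over 10.77 to 11.42, so that B-5123 alone reached their range, and a further probe set of the gene had no overlap, with means of 8.43 in the silent and 9.43 in the expressing lines. The difference was -0.94 ± 0.18 with an adjusted p of 0.195. All 3 lines between the classes, at 9.85, 9.41 and 10.20 in HEP-5123, PPT-5671 and PPT-15272, lay at or near the silent lines. With them counted as silent, which departs from the class limits, the adjusted p was 0.0422 for Itga6 and 0.00501 for AA414768. Without PPT-5748 it was 0.646 for Itga6 and 0.541 for AA414768, and without mouse 53631 it was 0.689 for both. The partner chain Itgb4 differed by -0.78 ± 0.68 and Itgb1 by 0.06 ± 0.30, neither past the unadjusted threshold. Itga6 was the only one of 12 measured laminin receptor and hemidesmosome genes with an unadjusted p under 0.05, and the median of the list was -0.19.

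Fkbp11, a prolyl isomerase of the endoplasmic reticulum, separated the classes without overlap. It was 7.04 in ASC-5193, 7.31 in B-5123, 7.62 in PPT-5748 and 7.36 in B-152727, and 7.93 to 9.57 with a median of 8.59 in the expressing lines. The difference was -1.28 ± 0.24 with an adjusted p of 0.195, while 2 further probe sets differed by -0.03 and -0.23. Ttc9, a tetratricopeptide repeat gene, was 4.53 in ASC-5193, 5.17 in B-5123, 3.71 in PPT-5748 and 3.94 in B-152727, against 4.85 to 8.51 with a median of 6.78. Its difference was -2.41 ± 0.49 (adjusted p = 0.249), with B-5123 inside the range of the expressing lines.

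The further genes of this group included 2210016F16Rik (-1.74 ± 0.36), the ribonuclease P subunit Rpp25 (-2.56 ± 0.58), the membrane-bound metalloprotease Adam9 (-0.76 ± 0.18) and D2hgdh, which oxidises D-2-hydroxyglutarate (-0.74 ± 0.17). Their adjusted p ran from 0.288 to 0.508. ASC-5193 had the lowest signal of the silent lines in all 4, and Rpp25 was 1.90 there and 3.28, 2.63 and 3.59 in B-5123, PPT-5748 and B-152727. For 2210016F16Rik another probe set differed by -1.46 and the last by -0.06. Acaca, Impg1 and Fam228a were also lower without overlap, by -0.51, -0.46 and -0.36, but all of these probe sets were dim in both classes. Nod1, a cytosolic sensor of bacterial peptides singled out after its values were seen, was lower without overlap by -1.10 at an unadjusted p of 0.0825.

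Genes with higher signals in the silent lines were led by Eny2, Cp and Nfkbie. Nfkbie encodes an inhibitor that holds NF-kappaB dimers in the cytoplasm and is itself a known NF-kappaB target. By 1 probe set it was 6.81 in ASC-5193, 5.71 in B-5123, 6.44 in PPT-5748 and 6.30 in B-152727. The expressing lines ran from 3.17 over 4.30 to 5.67, just under the lowest silent line. The difference was 1.97 ± 0.38 with an adjusted p of 0.195, and the other probe set also had no overlap and a difference of 2.40 ± 0.59.

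Cp encodes ceruloplasmin, a copper-carrying ferroxidase that belongs to the acute phase proteins. It was 6.48 in ASC-5193, 5.21 in B-5123, 7.54 in PPT-5748 and 7.38 in B-152727, and 3.22 to 6.24 with a median of 4.13 in the expressing lines. B-5123 lay inside the range of the expressing lines and the other silent lines above it. The difference was 2.39 ± 0.45 (adjusted p = 0.195), and the 7 other probe sets of Cp differed by 1.64 to 3.58. Without B-5123, the silent line inside that range, the difference was 2.87 with an adjusted p of 0.0468. Without ASC-5193, PPT-5748 or B-152727 the adjusted p was 0.331, 0.707 and 0.475.

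Eny2, a small subunit of the SAGA coactivator and of the mRNA export complex TREX-2, was 3.99 to 4.15 in the silent lines and 2.50 to 3.68 in the expressing lines, where it was dim. The difference was 1.01 ± 0.18 (adjusted p = 0.165). A brighter probe set of Eny2 also had no overlap, with means of 6.59 and 5.51, and 4 others differed by 0.12 to 0.77. Cul3, the scaffold of a ubiquitin ligase, and Gtf2ird2 were singled out after their values were seen, as the other brighter probe sets that were higher without overlap, by 0.77 and 0.43. The named genes with smaller differences were Gpm6b (0.89 ± 0.21), 4933439C10Rik (0.73 ± 0.16), Zfp267 (0.56 ± 0.13) and the dim Igbp1 (0.40 ± 0.09), which separated the classes without overlap while 1 of its 4 other probe sets differed by -0.02.

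Among secreted proteases, Mmp10 (stromelysin-2) had the smallest p. It was 9.62 in ASC-5193, 9.50 in PPT-5748 and 7.66 in B-152727, above all expressing lines, and 4.37 in B-5123. The expressing lines ran from 3.54 over 4.38 to 6.35, so that B-5123 was at their median. The difference was 3.20 ± 0.70 (adjusted p = 0.495), and without B-5123 it was 4.34 with an adjusted p of 0.00959. Without ASC-5193, PPT-5748 or B-152727 the adjusted p was 0.69, 0.853 and 0.477. Taking out the silent line nearest to the expressing lines widens the gap by itself, so the value without B-5123 adds no evidence. Both other stromelysin and collagenase genes of the list that passed the unadjusted threshold, Mmp3 (3.07 ± 0.94) and Mmp13 (3.04 ± 1.30), and the gelatinase Mmp9 (1.16 ± 0.49), also had higher means. For Mmp9 this rested on ASC-5193, which was 8.12 while the other silent lines were 3.60 to 3.67 and the expressing lines 3.27 to 3.88, and the difference without it was 0.04. For Mmp13 the difference was 1.95 without PPT-5748 and -0.04 with the mouse as a fixed block. Mmp3 was 10.57, 5.63, 8.26 and 7.42 and Mmp13 was 7.36, 5.67, 11.84 and 9.44 in ASC-5193, B-5123, PPT-5748 and B-152727. Of the 16 measured matrix proteases and inhibitors, these 4 were higher and none was lower at an unadjusted p under 0.05, beside 2.81% and 3.19% of all probe sets, and without ASC-5193 the count was 3. The median of the list was 0.13 beside -0.01 for all probe sets, and its sign rested on ASC-5193, since it was -0.03 without that line, with 8 of 16 positive, and 0.40 without B-152727. Within mouse 15272 the median was -0.10. Mmp2, the Timp genes, Plau and Plat did not pass the unadjusted threshold.

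**Figure D2:**
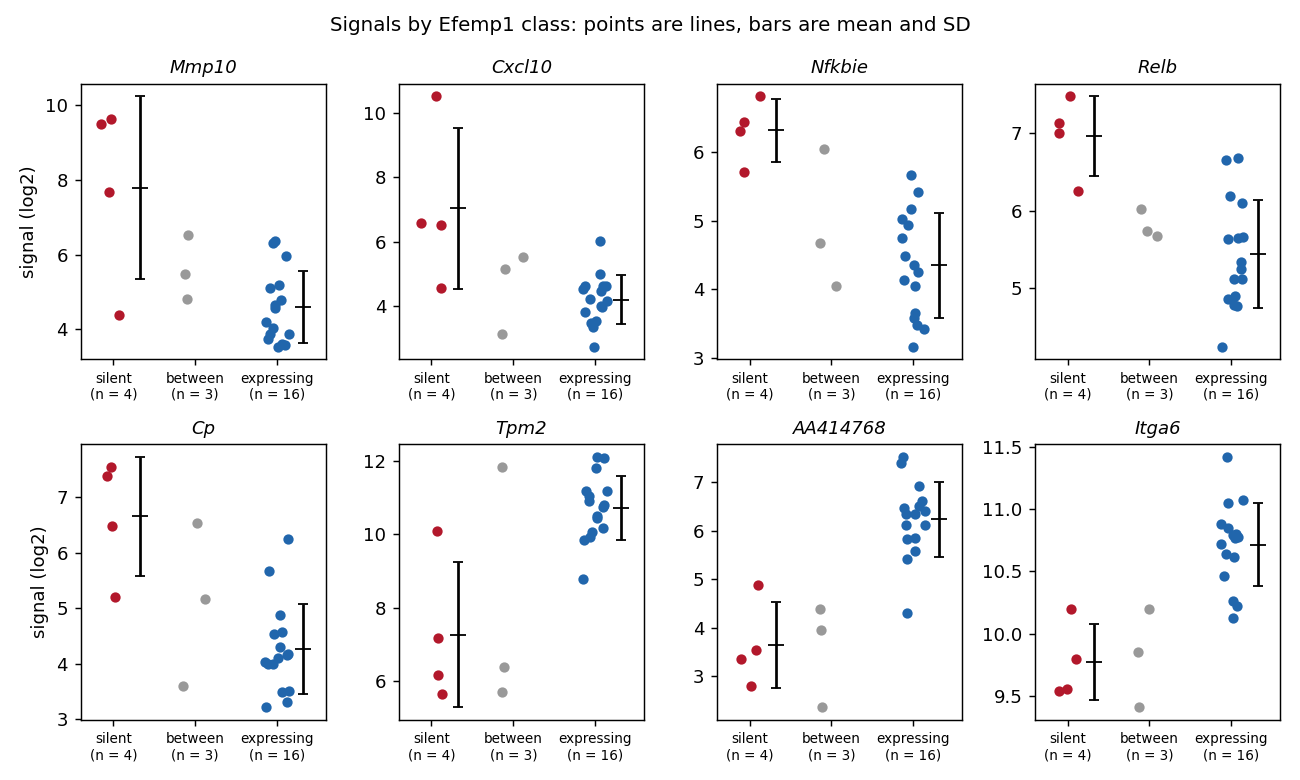
Signals on the log2 scale (vertical axes) of 8 named genes in the silent, between and expressing lines (horizontal axes), where each point is 1 line and bars give the mean and SD of a class. The silent and expressing lines do not overlap for Nfkbie, and 1 silent line reaches into the range of the expressing lines for each of the other genes.

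Cells answer type I and type II interferons by STAT and IRF transcription factors, which induce antiviral effectors, guanylate-binding GTPases and chemokines. All 19 measured genes of the interferon response list had a higher mean in the silent lines, with a median difference of 1.22 beside -0.01 for all probe sets. Only 11 of the 19 had a mean over all lines above 3.76, and the others were dim. All gene lists here were chosen with earlier results of these data known, so counts of their members describe the data. At an unadjusted p under 0.05, 14 of the 19 were higher, beside 2.81% of all probe sets, and none was lower. The size differed between the silent lines. The mean of the 19 genes was 7.39 in ASC-5193, 6.16 in PPT-5748, 4.90 in B-152727 and 4.28 in B-5123, against 3.77 to 5.68 with a median of 4.15 in the expressing lines. ASC-5193 and PPT-5748 lay above all expressing lines and B-152727 and B-5123 among them. Without ASC-5193 all 19 differences remained positive, with a median of 0.63, and 5 were at an unadjusted p under 0.05. Without PPT-5748 17 were positive and 9 passed the unadjusted threshold.

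The chemokine Cxcl10 was 10.53 in ASC-5193, 4.55 in B-5123, 6.52 in PPT-5748 and 6.57 in B-152727, and 2.73 to 6.03 with a median of 4.18 in the expressing lines. Its difference was 2.86 ± 0.66 (adjusted p = 0.508), and B-5123 alone lay within the range of the expressing lines. Irf1, a transcription factor of the interferon gamma response, was 8.89 in ASC-5193, 8.26 in PPT-5748 and 7.90 in B-5123. The expressing lines ran from 6.97 over 7.54 to 8.01, so that B-5123 and B-152727 lay at the upper end of their range. The difference was 0.76 ± 0.18 (adjusted p = 0.508). The antiviral gene Rsad2 (1.38 ± 0.38) and the guanylate-binding gene Gbp3 (2.04 ± 0.63) followed, with an adjusted p of 0.695 and 0.713. Rsad2 was 8.39 and Gbp3 8.54 in ASC-5193, and without this line the differences were 0.61 for Rsad2, 0.86 for Gbp3, 1.69 for Cxcl10 and 1.64 for Ifit1. Ifit1, which binds viral RNA, was 8.55 in ASC-5193, 2.99 in B-5123, 6.32 in PPT-5748 and 5.54 in B-152727, against a median of 2.65 and a highest value of 6.18 in the expressing lines. Gbp6, a guanylate-binding GTPase, was dim in both classes and differed by 0.97 ± 0.23. The probe set of Gbp3 was also among those left out where dim probe sets were dropped. Tap1 and Psmb8, which serve antigen processing, differed by 0.12 ± 0.39 and 0.50 ± 0.49.

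Class I major histocompatibility molecules present peptides that are cut and loaded by the genes of the next list. All 12 of its measured members had a higher mean in the silent lines, with a median difference of 0.50, and 2 were at an unadjusted p under 0.05, beside 2.81% of all probe sets. The list was added with earlier results of these data known, so these counts are no independent support. Without PPT-5748 9 of the 12 were positive, the count at the unadjusted threshold was 1 to 4 with 1 silent line left out, lowest without ASC-5193 and highest without B-152727, and within mouse 15272 the median was -0.01 with 5 of 12 positive. Cd1d1, which presents lipids, was 9.26 in ASC-5193, 6.58 in B-5123, 7.35 in PPT-5748 and 7.17 in B-152727, against 4.59 to 7.10 with a median of 5.97. The difference was 1.66 ± 0.42 with an adjusted p of 0.583. The peptide loading factor Tapbp differed by 1.06 ± 0.34 (adjusted p = 0.742), and by 0.68 without ASC-5193. The class I chains H2-K1 and H2-D1 and the light chain B2m differed by 0.45 ± 0.31, 0.51 ± 0.31 and 0.77 ± 0.45.

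NF-kappaB factors are dimers of Rel proteins that are held back by IkappaB proteins until an upstream kinase complex releases them. Of 20 measured subunits, inhibitors and regulators, 16 had a higher mean in the silent lines. The median difference was 0.24, and 7 were higher and none lower at an unadjusted p under 0.05, beside 2.81% and 3.19% of all probe sets. This list was added with earlier results of these data known. It holds Nfkbie and Relb, which were among the genes with the smallest p, so its count is no independent support. The mean of the 20 genes was 7.29 to 7.46 in the silent lines and 6.21 to 7.40 with a median of 6.96 in the expressing lines, so that the silent lines lay close to each other and overlapped the upper end of the expressing lines. Without ASC-5193, 17 were positive with a median of 0.33, and 3 passed the unadjusted threshold.

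Relb, a subunit of the alternative pathway, was 7.48 in ASC-5193, 7.13 in B-152727 and 6.25 in B-5123, with PPT-5748 between B-152727 and B-5123. In the expressing lines it ran from 4.24 over 5.29 to 6.68, and B-5123 lay within that range. The difference was 1.53 ± 0.36 with an adjusted p of 0.508. Nfkb2, whose product p100 is processed to the partner of RelB, differed by 0.73 ± 0.22, and the inhibitor Nfkbia by 0.91 ± 0.30, with adjusted p of 0.713 and 0.773. Rela and Rel differed by 0.30 ± 0.18 and 0.10 ± 0.25 and did not pass the unadjusted threshold.

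Of 25 measured cytokine and acute phase genes, 16 had a higher mean in the silent lines, and 8 were higher and none lower at an unadjusted p under 0.05, beside 2.81% and 3.19% of all probe sets. This list too was added with earlier results known, and Cxcl10 counts both here and in the interferon list. The counts are therefore no independent support. Of the 25 genes, 17 had a mean over all lines above 3.76. Without PPT-5748 5 were higher, and the median of the list, 0.38, was 0.19 without ASC-5193. The mean of the 25 genes was 6.30 in ASC-5193, 5.99 in B-152727, 5.90 in PPT-5748 and 5.69 in B-5123. All of these lay inside the range of the expressing lines, 4.07 to 6.41, and PPT-15272, between the classes, had 6.96. Within mouse 15272 the median was 0.05, with 13 of 25 positive. The monocyte chemokine Ccl2 was 11.64 in ASC-5193, 7.35 in B-5123, 10.12 in PPT-5748 and 8.06 in B-152727, against 3.71 to 9.16 with a median of 6.46 in the expressing lines. Its difference was 2.95 ± 0.75 (adjusted p = 0.589). The T cell chemokine Ccl5 was 11.83 in ASC-5193 and 4.50, 6.03 and 5.56 in B-5123, PPT-5748 and B-152727, against a median of 3.83, with a difference of 2.92 ± 0.83 that was 1.31 without ASC-5193. Lcn2, a siderophore-binding acute phase protein, went the other way among the silent lines. It was 2.90 in ASC-5193 and 8.82, 8.66 and 7.25 in B-5123, PPT-5748 and B-152727, against 2.27 to 8.97 with a median of 3.03, and the difference was 3.25 ± 1.01 (adjusted p = 0.713). Il1b and Tnf were dim in the silent lines and did not pass the unadjusted threshold.

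The promoter windows of 4 genes of these lists are shown for the letters that known factors of the pathways read, searched on both strands in the 250 bases before the start. In Nfkbie, chr17:45555450-45555699 (plus strand), and in Cxcl10, chr5:92348890-92349139 (minus strand), capitals mark the NF-kappaB consensus, and overlapping matches in Cxcl10 were joined. In Ifit1, chr19:34640639-34640888 (plus strand), they mark the interferon-stimulated response element core GAAANNGAAA or its reverse complement, and in Mmp10, chr9:7502092-7502341 (plus strand), the AP-1 site TGANTCA.
Nfkbie: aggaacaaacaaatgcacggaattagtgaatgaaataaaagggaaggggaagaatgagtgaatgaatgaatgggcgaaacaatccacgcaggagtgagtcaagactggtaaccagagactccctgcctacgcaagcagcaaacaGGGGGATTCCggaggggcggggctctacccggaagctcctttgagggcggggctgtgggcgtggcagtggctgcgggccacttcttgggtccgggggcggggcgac
Cxcl10: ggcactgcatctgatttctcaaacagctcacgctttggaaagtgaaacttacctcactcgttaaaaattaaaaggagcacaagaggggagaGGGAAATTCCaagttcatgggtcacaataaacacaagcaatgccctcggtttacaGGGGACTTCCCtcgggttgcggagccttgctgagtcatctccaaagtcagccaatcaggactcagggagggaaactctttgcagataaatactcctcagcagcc
Ifit1: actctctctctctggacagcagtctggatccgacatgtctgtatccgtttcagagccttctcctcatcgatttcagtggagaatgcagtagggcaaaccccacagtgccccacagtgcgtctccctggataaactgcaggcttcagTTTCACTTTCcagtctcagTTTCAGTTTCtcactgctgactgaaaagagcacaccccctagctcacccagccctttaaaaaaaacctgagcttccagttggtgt
Mmp10: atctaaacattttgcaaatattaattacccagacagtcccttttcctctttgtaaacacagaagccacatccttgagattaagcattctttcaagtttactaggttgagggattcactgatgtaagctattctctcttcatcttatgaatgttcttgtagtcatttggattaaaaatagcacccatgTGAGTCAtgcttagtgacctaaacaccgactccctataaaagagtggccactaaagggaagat
The match began 106 bases before the start in Nfkbie, 159 and 104 bases before it in Cxcl10, 104 and 85 bases before it in Ifit1 and 63 bases before it in Mmp10. Only the motif named for each window is in capitals. The Cxcl10 window also holds the interferon-stimulated core, and the Nfkbie and Cxcl10 windows the AP-1 site, in small letters. Of 32851 windows, 7.25% held the NF-kappaB consensus, 2.98% the interferon-stimulated core and 6.75% the AP-1 site. Of the 17 interferon response genes with a window, 8 held the interferon-stimulated core. Of the 17 NF-kappaB genes with a window 7 held the NF-kappaB consensus, as did 8 of 17 cytokine and acute phase genes, and of 11 matrix protease genes 4, Mmp3, Mmp7, Mmp10 and Mmp13, held the AP-1 site. A match gives letters only and was not tested as a bound site.

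Genes of cell division went the other way. All 17 measured proliferation genes had a lower mean in the silent lines, with a median difference of -0.52, and 6 were lower at an unadjusted p under 0.05, beside 3.19% of all probe sets. The mean of the 17 genes was 9.31 in ASC-5193, 9.87 in B-5123, 8.32 in PPT-5748 and 9.50 in B-152727, against 9.10 to 10.37 with a median of 9.80 in the expressing lines. PPT-5748 alone lay below all expressing lines. Without PPT-5748 the median was -0.15, 3 of the 17 differences were positive and 1 was at an unadjusted p under 0.05. The checkpoint kinase Bub1 differed by -0.82 ± 0.28, the mitotic cyclin Ccnb2 by -0.85 ± 0.30 and the mitotic kinases Aurka and Aurkb by -0.72 ± 0.28 and -0.83 ± 0.33, with adjusted p from 0.781 to 0.802. Without PPT-5748 the differences were -0.53 for Bub1, -0.39 for Aurka and -0.50 for Aurkb.

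Of 5 measured relatives of Efemp1 in the fibulin family, 4 had a lower mean and none passed the unadjusted threshold. Fbln2, a basement membrane relative, was 3.25 in ASC-5193 and 11.99, 11.64 and 11.43 in B-5123, PPT-5748 and B-152727, against 10.00 to 12.35 with a median of 11.46 in the expressing lines. The difference of -1.92 ± 0.95 (unadjusted p = 0.0564) rested on ASC-5193, and without this line it was 0.18. Fbln5, which binds elastin and integrins, was 8.92 in ASC-5193 and 2.96 to 4.19 in the other silent lines, against 2.48 to 10.44, and differed by -0.58 ± 1.42. Of 17 elastic fibre genes and fibulin partners, 9 had a higher and 8 a lower mean, with a median of 0.01.

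Cdkn1b, which encodes the cell cycle inhibitor p27, was 8.05 in ASC-5193, 9.68 in B-5123, 10.00 in PPT-5748 and 10.10 in B-152727, and 8.77 to 10.03 with a median of 9.43 in the expressing lines. The difference was 0.06 ± 0.27 (adjusted p = 0.987), and ASC-5193 lay below and B-152727 above all expressing lines. None of the 18 measured G1 regulators passed the unadjusted threshold, and their median difference was -0.12. Of 21 PI3K, AKT and mTOR pathway genes 16 had a higher mean, with a median of 0.13, and without ASC-5193 11 had a higher mean, with a median of 0.01, while Pik3ca (0.37 ± 0.17, adjusted p = 0.822) was the 1 gene past the unadjusted threshold. Among 11 receptors and ligands of the EGF receptor family the ligand betacellulin, Btc, differed by -1.06 ± 0.45 and was the 1 gene past it, with 4.59 in ASC-5193 and a difference of -0.44 without that line, while Egfr had an unadjusted p of 0.189.

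In each of the lists for the Notch pathway, p53 targets and TGF-beta and BMP signalling, 1 gene passed the unadjusted threshold. These were Lfng (0.65 ± 0.26), Bbc3 (0.55 ± 0.19) and Tgfbr2 (-0.66 ± 0.24), with adjusted p of 0.802, 0.782 and 0.783. Bbc3 differed by 0.28 without PPT-5748 and Tgfbr2 by -0.35 without ASC-5193. The medians of the 3 lists were 0.01, 0.19 and 0.14. None of 17 DNA methylation and Polycomb genes passed it, their differences ran from -0.25 to 0.47, and Dnmt1 differed by -0.25 ± 0.23 and Dnmt3a by 0.24 ± 0.35. Of 20 mesenchymal markers Snai2 was past it, with 1.06 ± 0.37 (adjusted p = 0.781) and 0.65 without ASC-5193, and the largest difference was that of Col1a2 with -3.85 ± 1.93 at an unadjusted p of 0.0593. Col1a2 was 3.59 to 4.63 in the silent lines and 3.44 to 13.27 with a median of 7.68 in the expressing lines, which thus held lines at both ends. None of 20 epithelial markers passed the unadjusted threshold. Their median was -0.47, and -0.05 without ASC-5193.

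On chromosome 11, the genes around Efemp1 were examined next. Of 12 protein-coding genes annotated within 1 Mb, 10 were measured, and 7 of these were brighter than the median signal. Differences ran from -0.57 to 0.15, and none passed the unadjusted threshold. The nearest measured genes were Pnpt1, 203 kb after Efemp1, with -0.04 ± 0.13, and Ppp4r3b, 246 kb after it, with 0.15 ± 0.11. Prorsd1 had the largest difference, -0.57 ± 0.33, through ASC-5193 with a signal of 4.86 against 7.39 to 7.95 in the other silent lines, and without ASC-5193 it was 0.13.

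**Figure D3:**
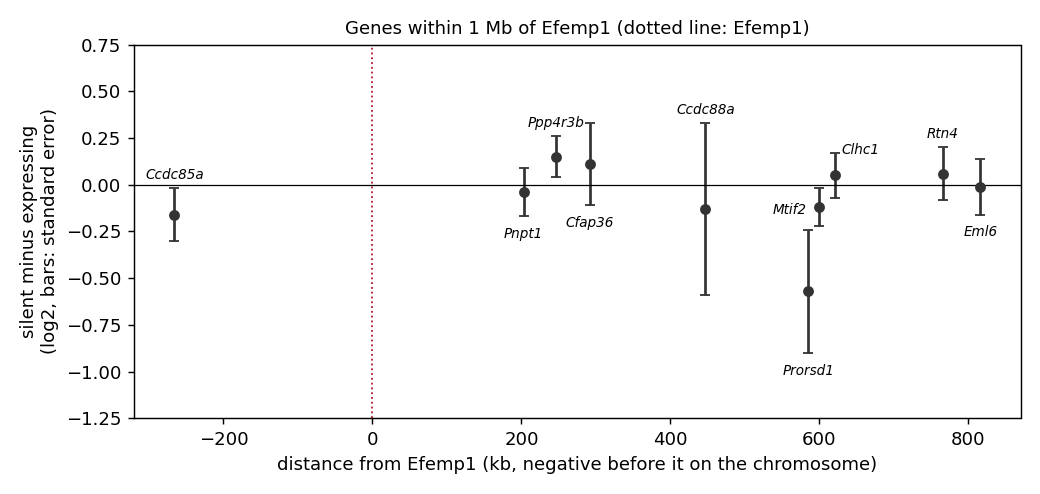
Silent minus expressing difference on the log2 scale with its standard error (vertical axis) of the 10 measured genes within 1 Mb of Efemp1, by their distance from Efemp1 in kb (horizontal axis, dotted line at Efemp1). The differences run from -0.57 for Prorsd1 to 0.15 for Ppp4r3b.

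Over all 23 lines the highest positive correlations with the Efemp1 signal were those of Itga6 (Pearson's r = 0.78) and AA414768 (0.74), followed by Bbip1, Stn1, Mcm8, Ptprb, Cpsf3 and Fmn1 with 0.70 to 0.73. These values describe the data, since the lines share mice and the genes were picked for the height of r out of all probe sets. Negative correlations were not ranked, and among the genes named above Eny2 had r = -0.78 and Nfkbie r = -0.72. The values over 23 lines include the gap in Efemp1 between the classes, and within the 16 expressing lines alone r was 0.31 for Itga6. AA414768 had its highest and lowest signals of that class in PPT-3107 (7.52) and LN1-15272 (4.31). Their Efemp1 signals were close to each other, at 8.89 and 8.79. Ptprb, a receptor tyrosine phosphatase, was 3.27 in ASC-5193, 3.73 in PPT-5748 and 4.45 in B-152727 but 7.67 in B-5123, against 5.78 to 8.14 in the expressing lines. Its difference of -2.23 ± 0.55 (adjusted p = 0.583) was -3.19 without B-5123, the silent line inside that range, with an adjusted p of 0.00959. Without ASC-5193, PPT-5748 or B-152727 the adjusted p was 0.756, 0.948 and 0.603. The telomere capping gene Stn1 (-0.85 ± 0.21), the BBSome subunit Bbip1 (-0.61 ± 0.15), the helicase gene Mcm8 (-0.79 ± 0.20), the mRNA 3′ end nuclease Cpsf3 (-0.45 ± 0.11) and the actin-nucleating formin Fmn1 (-1.24 ± 0.33) had smaller differences.

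Mice that gave lines to both classes allow a comparison within a mouse. All 24 genes with the smallest p, 12 higher and 12 lower, went the same way in ASC-5193 against PPT-5193 and in B-152727 against the mean of LN1-15272 and PUL-15272, and both pairs took part in choosing these genes. Mmp10 was 3.30 higher in ASC-5193 than in PPT-5193 and 2.75 higher in B-152727 than in the other pair. For Cp these differences were 2.17 and 3.34, for Nfkbie 1.88 and 1.58, and for Itga6 -1.06 and -1.14. The lines of mouse 15272 formed a series, with Efemp1 at 10.33 in PUL-15272, 8.79 in LN1-15272, 6.63 in PPT-15272 and 2.56 in B-152727.

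Along that series PPT-15272 resembled B-152727 in Nfkbie, 6.04 against 6.30, and the expressing lines in Cp, 3.60 against 7.38. HEP-5123, from the same mouse as B-5123, had an Efemp1 signal of 7.16 and entered no test, and 18 of the 24 genes went from it to B-5123 in the direction of the classes, 9 of 12 each way. B-5123 itself took part in choosing these genes, so the count is no outside check. Nfkbie was 4.67 in HEP-5123 and 5.71 in B-5123, while Cp was 5.17 and 5.21 and Mmp10 4.80 and 4.37. The interferon list differed by a median of 3.33 between ASC-5193 and PPT-5193, with 18 of 19 genes higher in ASC-5193, and by 0.61 in mouse 15272, with 14 of 19 higher in B-152727. With so few lines per mouse these values stand without a test.

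**Figure D4:**
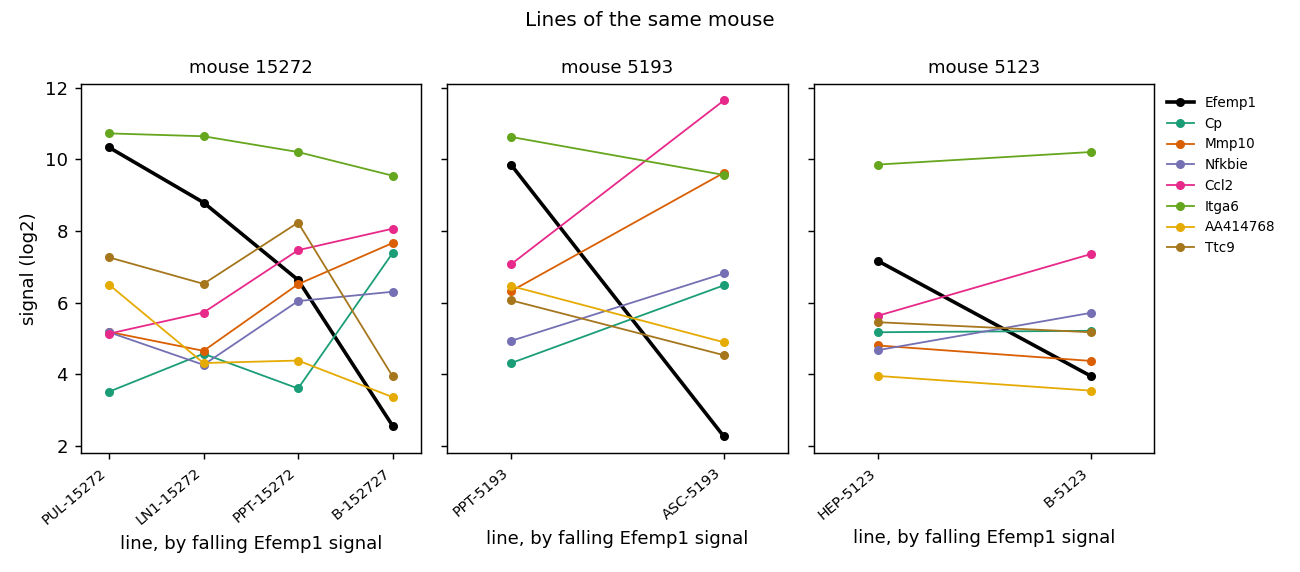
Signals on the log2 scale (vertical axis) of Efemp1 and 7 other genes in the lines of the 3 mice that gave a silent line and at least 1 other line (horizontal axes, ordered by falling Efemp1 signal), where points are lines and lines join values of 1 gene. Efemp1 falls from 10.33 to 2.56 in mouse 15272 while Mmp10, Nfkbie, Ccl2 and Cp are higher in B-152727 than in PUL-15272 and LN1-15272.

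The 3 lines between the classes had no part in the fit. Of the 24 genes, HEP-5123 lay nearer to the expressing than to the silent mean for 15, PPT-15272 for 16 and PPT-5671 for 14. For the 12 genes that were higher in the silent lines, 10, 8 and 8 values of HEP-5123, PPT-5671 and PPT-15272 were nearer to the expressing mean. For the 12 lower genes HEP-5123 was nearer to the silent mean for 7, PPT-5671 for 6 and PPT-15272 for 4.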

How the data were processed

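RNA of 23 murine PDAC cell lines was hybridised to Affymetrix mouse expression arrays, 1 for each line. The values that the authors deposited are normalized signals on the log2 scale. RMA is named in the submitters' processing notes, whereas the supplementary methods give VSN before the log transform, and which of them made these values is not settled. Versions of these tools were not found. The values were used as deposited, with no pseudocount, and 64 control probe sets of 45101 were left out. Of the other 45037 probe sets, 34945 had 1 gene symbol, 932 several and 9160 none. Gene positions and promoters came from RefSeq (GRCm38.p6). Precision is limited by the number of arrays.

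Lines were put into classes by their Efemp1 signal, each line counting as 1 replicate. Silent and expressing lines were compared by the moderated linear model of limma 3.58.1 (R 4.3.3). P-values were adjusted by Benjamini-Hochberg over all 45036 probe sets other than that of Efemp1, at a threshold of 0.05. The fit was tested on simulated data. Lines are not all from different mice, so p-values measure the spread between these lines. The line labelled B-152727 was taken as a line of mouse 15272. A further allele of the mice is not reported here. A gene is given by its brightest probe set, or, for the 12 genes per direction with the smallest p, by that probe set. Up to 4 members of each list with the smallest p, the 8 genes with the highest correlation with Efemp1 and genes within 1 Mb of it were also named, and further genes where they serve the description. The classes, the 21 gene lists and the 5 lists added later (NF-kappaB, cytokines, class I presentation, actin filaments, laminin receptors) were chosen with earlier results of these data known. Alternatives modelled the mouse as a random or fixed block, averaged lines of 1 mouse and class, left out lines or the mouse 53631, counted the lines between as silent, used the Efemp1 signal as a continuous measure, normalized or centred the arrays again, dropped dim probe sets, used trended and robust variances, or added the prefix as a covariate. Figures were drawn with matplotlib 3.10.9 in Python 3.11.15.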

Additional observations from a re-analysis of the deposited data

Results flagged for a closer look

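In 58 genes described here the 4 silent lines were searched for a line far from the others, which chance gives in about 1 of 20 groups. In 4 genes such a line was found, in 3 of them ASC-5193. Fbln2 was 3.25 in ASC-5193 against 11.43 to 11.99 in the other silent lines, and Mmp9 was 8.12 there against 3.60 to 3.67. Impg1 was 1.63 in ASC-5193 against 1.45 to 1.46, and Eny2 was 3.99 in PPT-5748 against 4.14 to 4.15.

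Mmp13 went opposite ways in the 2 mice with lines of both classes: it was -1.71 in ASC-5193 minus PPT-5193 and 1.21 in B-152727 minus the mean of LN1-15272 and PUL-15272. This difference between mice was not tested.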

How the results depend on the processing

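With the mouse as a fixed block, where the mouse of ASC-5193 and mouse 15272 alone give the difference, 35 probe sets were higher and 38 lower at an adjusted p under 0.05, among them Mmp10, Fkbp11, Ifit1 and Gbp6. The spread in that fit comes from lines of the same mouse, so these calls do not measure variation between mice. With the mouse as a random block (correlation 0.266) none was called, as in the comparison without it. Leaving out 1 silent line gave 0 to 4 higher and 0 to 2 lower calls, the highest numbers without B-5123 (4 and 2), and 2 lower calls without B-152727. With the lines between counted as silent 0 were higher and 2 lower. In the other alternatives the count was 0 in both directions, with 2319 to 3644 probe sets at an unadjusted p under 0.05 where all were tested. The count without overlap, 24, was put through alternatives chosen after seeing the data. It was 75 to 135 with 1 silent line left out, 70 with lines of 1 mouse and class averaged, 47 without mouse 53631, 0 with the lines between counted as silent, and 9 over the brighter probe sets. Leaving out or averaging lines can only keep or raise this count, and adding silent lines can only keep or lower it. Of 862 values of 58 genes under an alternative, 838 kept their direction and side of the threshold, 12 passed it and 12 changed sign, in 5 genes. Cdkn1b was -0.01 with a random block, -0.35 with a fixed block, -0.01 averaged, -0.05 without mouse 53631, and -0.15 to 0.53 with 1 silent line left out. With the fixed block Fbln5 was 2.48 and Mmp13 -0.04. With 1 silent line left out Fbln2 ran from -2.73 to 0.18, Fbln5 from -1.90 to 0.09 and Prorsd1 from -0.90 to 0.13. The cause of these changes was not tested. The number of silent lines, 4, limits what can be called, and dim probe sets carry little signal.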
